A study of Mus musculus with 6 samples.

Results

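Collagens are the proteins that give the extracellular matrix its strength, and the 44 protein-coding mouse genes with a collagen chain symbol (Col, a type number, a and a chain number) were taken from a table of 47122 gene models. They were read in 3 classes: 11 fibrillar chains, 8 chains of basement membranes (types IV, XV and XVIII) and 25 chains of other types. The samples were mouse ovaries collected 1 day post partum (dpp), 3 labelled wild type (WT) and 3 labelled Bcas2 cKO. The cKO is a conditional knockout in which the splicing factor gene Bcas2 was deleted in oocytes. All 6 share age and tissue. Strain, Cre driver, deleted exons and the number of animals per sample were not given in the labels, so p-values measure only the spread between these 6 samples, and part of that spread may be technical. A description attached to every sample names granulosa cells, whereas its tissue label is ovary. Levels are FPKM, fragments scaled by gene length and library size, so that genes can be compared per length.

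A collagen molecule is a triple helix wound from chains rich in glycine. Fibrillar chains assemble into the cable-like fibrils of connective tissue and are made mainly by fibroblast-like stromal cells. Type IV chains form the sheet of basement membranes, which underlie epithelia and surround blood vessels, muscle cells and, in the ovary, the forming follicles. Type VI chains build beaded microfilaments, and fibril-associated chains decorate the fibrils. Oocytes are not seen as a main source of fibrillar collagen, and which cells made the collagen RNA of these samples was not tested.

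The labels and the libraries were checked first. Bcas2 was at 54.5, 37.5 and 35.7 FPKM in the WT libraries and 18.9, 21.9 and 18.3 FPKM in the cKO libraries, with a log2 fold change of −1.05 (standard error 0.17, 95% limits −1.46 and −0.64, limma adjusted p = 0.955). The groups did not overlap, and all cKO libraries kept Bcas2 RNA of the whole sample. By exact two-sided permutation p was 0.1, the smallest that 3 against 3 allows. Ddx4, an RNA helicase that marks germ cells, was at 31.5, 29.3 and 45.3 FPKM in WT and 33.7, 34.1 and 31.7 FPKM in cKO, and Foxl2, a granulosa cell transcription factor, at 163.2, 101.5 and 82.3 FPKM in WT and 82.3, 98.0 and 105.7 FPKM in cKO; both cell types were thus detected in all samples. WT replicate 1 stood apart from the other libraries on the first principal component of all tested genes, which held 46.3% of the variance. The main collagen results are therefore given with and without it. In bulk tissue, fewer cells of a type and less RNA per cell cannot be told apart. Whole reads recovered from the table numbered 16800421 to 19565275 per library, of which 63934 to 222408 fell on the 44 collagen genes.

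Collagen RNA differed more between WT libraries than between the groups. Expression of the 44 genes together summed to 2123, 1029 and 676.6 FPKM in WT replicates 1, 2 and 3 and to 809.7, 631.0 and 789.6 FPKM in cKO replicates 1, 2 and 3. This averaged 1276 ± 754.5 FPKM (SD, n = 3) for WT and 743.4 ± 97.9 FPKM (SD, n = 3) for cKO, and the WT mean without replicate 1 was 852.6 FPKM. WT replicate 1 was the highest of the 6, and WT replicate 3 lay inside the cKO range. As a share of recovered reads, collagens took 1.23%, 0.633% and 0.417% in WT and 0.506%, 0.381% and 0.490% in cKO.

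**Figure D1:**
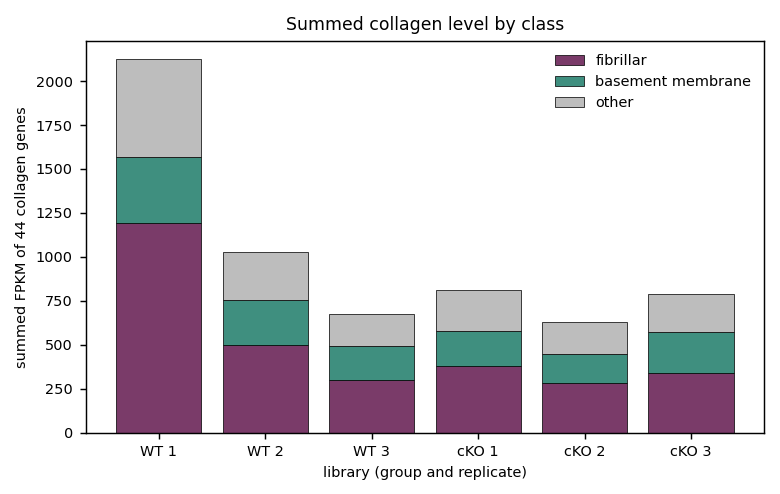
Summed FPKM of the 44 collagen genes in each library (bars, one per library), split into fibrillar, basement membrane and other classes. WT replicate 1 reaches 2123 FPKM, while the other 5 libraries lie between 631.0 and 1029 FPKM.

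Of the 44 genes, 32 had at least 1 FPKM in at least 3 samples and entered the tests: 8 fibrillar, 7 basement membrane and 17 of other types. With limma over all 14589 genes tested, 0 of the 32 passed an adjusted p under 0.05 in either direction, against 0% of all genes. Limma-voom on the recovered reads also called 0, against 0%. At an unadjusted p under 0.05 there was 1 collagen, Col6a6, which was lower in cKO, against 3.04% of all genes in either direction and 1.14% lower. In limma-voom there were 2, Col6a6 and Col1a1, against 2.42%. Groups did not overlap for 1 collagen, again Col6a6, against 7.88% of all genes (3.67% lower and 4.2% higher in cKO). The log2 fold change of cKO against WT was below 0 for 30 of the 32 and above 0 for Col9a3 and Col20a1, where 51.3% of all genes tested were below 0. After rescaling to TPM it was again below 0 for 30 of the 32, and for 67.4% of all genes. The median was −0.44, against −0.0058 over all genes. Without WT replicate 1 the fold change was below 0 for 24 and above 0 for 8, with a median of −0.090, against 50.8% of all genes below 0. At an unadjusted p under 0.05 that fit again held 1 collagen, Col6a6, against 3.61% of all genes (1.85% lower), and 2 collagens had groups that did not overlap, Col6a6 and Col20a1, against 16.3% of all genes (8.37% lower and 7.9% higher). WT replicate 3, the WT library lowest in collagen, weighed the other way. Leaving out the lowest WT library necessarily raises the WT mean of the collagen sum, as leaving out the highest lowers it. The shift in either fit therefore adds no support. Without WT replicate 3, 16 of the 32 had an unadjusted p under 0.05, all lower in cKO, against 7.24% of all genes (3.96% lower). Groups did not overlap for 21, 20 of them lower, against 27% (13.3% lower). The median was then −0.69, 0 passed after adjustment (0% of all genes), and 49% of all genes were below 0. The median 95% limits of a collagen lay 0.74 log2 units from its estimate with all samples, 0.48 without WT replicate 1, and 0.35 over all genes with all samples.

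**Figure D2:**
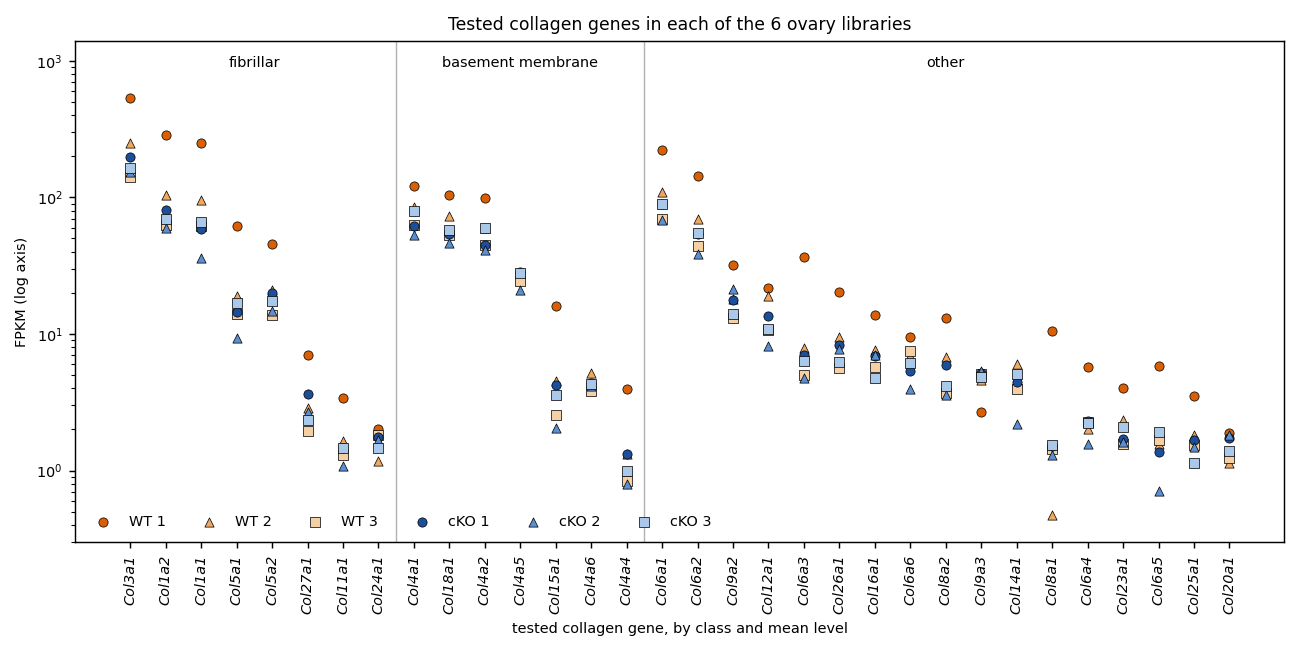
FPKM (log axis) of the 32 tested collagen genes in each of the 6 libraries, ordered by class and mean level; each point is 1 library. WT replicate 1 (dark orange circles) is the highest point for 28 of the 32 genes, and for Col9a3 it is the lowest.

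High values in WT replicate 1 were found in all 3 classes. It was the highest library for 28 of the 32 tested collagens, against 27.6% of all genes tested. Its level was at least 2 times the median of the other 5 libraries for 21 of the 32, against 4.8% of all genes, and at least 2 times the highest of them for 15, against 2.43%. The median ratio to the median of the others was 2.43 for the tested collagens and 0.992 for all genes. By class, 7 of 8 fibrillar, 3 of 7 basement membrane and 11 of 17 other tested chains reached 2 times the median of the other 5. Summed endothelial, pericyte and stroma markers stood at 3.37, 3.66 and 2.78 times the median of the other libraries in WT replicate 1, and their part in the collagen levels was not tested. WT replicate 2 was the highest of the remaining 5 libraries for 21 of the 32, against 20.5% of all genes. At the low end, cKO replicate 2 was the lowest of all 6 for 19 of the 32, against 20.3% of all genes. These shares describe single libraries and are not tests of the genotype.

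Sequences before the gene starts are shown for genes that were high in WT replicate 1 and for a gene that was not. The level in that library was 3.29 times the median of the other libraries for Col3a1, 4.27 for Col5a1, 4.47 for Col15a1 and 1.00 for Col4a6. The RefSeq promoter table (GRCm38.p6) held 38 entries for 35 of the 44 genes. The 250 bases before the start are shown for 3 genes that were high in WT replicate 1, Col3a1 (chr1:45311288-45311537, plus strand), Col5a1 (chr2:27886175-27886424, plus strand) and Col15a1 (chr4:47207762-47208011, plus strand), and for Col4a6 (chrX:141474077-141474326, minus strand), which was level there. None of these windows holds an exon in GENCODE M21. Starts are the RefSeq ones, and those of the GRCm39 gene models behind the FPKM values may differ and were not compared. Capitals mark matches on either strand to CCAAT (the word of CCAAT boxes), GGGCGG (of GC boxes) or TATAAA (of TATA boxes).
Col3a1: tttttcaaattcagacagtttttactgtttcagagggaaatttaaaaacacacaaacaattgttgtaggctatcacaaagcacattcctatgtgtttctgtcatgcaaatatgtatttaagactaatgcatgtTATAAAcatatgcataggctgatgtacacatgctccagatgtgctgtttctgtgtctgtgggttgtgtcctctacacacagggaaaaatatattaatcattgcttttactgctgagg
Col5a1: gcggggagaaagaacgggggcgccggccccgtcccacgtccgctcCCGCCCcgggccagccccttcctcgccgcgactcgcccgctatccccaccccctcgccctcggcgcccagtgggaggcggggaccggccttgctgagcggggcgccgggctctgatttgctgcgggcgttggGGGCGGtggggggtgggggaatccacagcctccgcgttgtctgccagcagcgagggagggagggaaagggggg
Col15a1: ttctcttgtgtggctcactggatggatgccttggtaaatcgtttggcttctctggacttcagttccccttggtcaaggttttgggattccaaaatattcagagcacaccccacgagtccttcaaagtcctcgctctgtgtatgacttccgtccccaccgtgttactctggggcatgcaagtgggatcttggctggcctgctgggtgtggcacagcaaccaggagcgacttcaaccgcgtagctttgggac
Col4a6: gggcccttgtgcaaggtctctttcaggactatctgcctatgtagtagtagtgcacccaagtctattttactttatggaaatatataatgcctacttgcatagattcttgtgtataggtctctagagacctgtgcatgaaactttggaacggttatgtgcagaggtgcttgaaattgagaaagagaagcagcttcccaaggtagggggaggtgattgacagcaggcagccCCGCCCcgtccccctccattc

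The windows differ widely in base composition. The share of G and C is 35.2% for Col3a1, 76.4% for Col5a1, 53.6% for Col15a1 and 47.6% for Col4a6, with a median of 52.4% over all promoters of the table. Col3a1 holds TATAAA, Col5a1 holds GGGCGG at 2 places and Col4a6 at 1, and Col15a1 holds none of the 3 words in this window. Over the 38 collagen windows, GGGCGG was found in 22 (57.9%), CCAAT in 13 (34.2%) and TATAAA in 5 (13.2%), against 32.7%, 33.8% and 12.4% of all 32851 windows. The collagen windows were also richer in G and C, with a median of 59% against 52.4%. GGGCGG is made of G and C only, and the part of base composition in its count was not tested. The 38 windows belong to 35 genes, so some genes count more than once. Col3a1, Col5a1 and Col15a1 had none of these words in common in the windows shown, and a match describes letters, not a working site.

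The fibrillar chains carried the largest share of collagen FPKM among the 3 classes. They made up 56.2%, 48.3% and 44.2% of summed collagen FPKM in WT and 47.0%, 44.4% and 42.9% in cKO, so the share was highest in WT replicate 1. Col3a1, the only chain of type III collagen in reticular fibres, was the most abundant collagen at 536.1, 251.5 and 141.3 FPKM in the WT libraries and 198.3, 154.3 and 162.9 FPKM in the cKO libraries. WT replicates 1 and 2 lay above all other libraries, but WT replicate 3 lay below all cKO libraries. Means were 309.6 ± 203.7 FPKM (SD, n = 3) for WT and 171.9 ± 23.3 FPKM (SD, n = 3) for cKO, with a log2 fold change of −0.64 (standard error 0.44, 95% limits −1.68 and 0.40, limma adjusted p = 0.955). Without WT replicate 1 the value was −0.14 (95% limits −0.74 and 0.46).

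Type I collagen, the main fibre of connective tissue, is built from the chains of Col1a1 and Col1a2. Col1a1 was at 251.3, 95.8 and 61.3 FPKM in the WT libraries and 58.9, 35.9 and 65.95 FPKM in the cKO libraries. WT replicates 1 and 2 exceeded all cKO libraries and WT replicate 3 lay inside their range. It had the lowest log2 fold change of all tested collagens, −1.12 (standard error 0.50, 95% limits −2.31 and 0.065, limma adjusted p = 0.955), and kept the lowest value of its class without WT replicate 1, at −0.55 (95% limits −1.26 and 0.15). Col1a2 was at 284.2, 103.2 and 62.6 FPKM in the WT libraries and 80.6, 59.3 and 69.2 FPKM in the cKO libraries. Again WT replicates 1 and 2 were the 2 highest libraries and WT replicate 3 lay among the cKO values. Its log2 fold change was −0.82 (standard error 0.50, 95% limits −2.0 and 0.36, limma adjusted p = 0.955), and −0.21 (95% limits −0.76 and 0.34) without WT replicate 1.

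Col5a1 and Col5a2 encode type V chains, which start fibrils and set their width. Col5a1 was at 62.1, 19.0 and 13.9 FPKM in the WT libraries and 14.5, 9.32 and 16.9 FPKM in the cKO libraries, with a log2 fold change of −0.90 with all samples and −0.28 without WT replicate 1. In WT replicate 1 it stood at 3.27 times the next library, and the other 5 overlapped. Col5a2 was at 45.4, 20.9 and 13.7 FPKM in the WT libraries and 20.01, 14.8 and 17.3 FPKM in the cKO libraries, with log2 fold changes of −0.43 and 0.025. Its sign turned without WT replicate 1.

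Minor fibrillar chains were present at low levels. Col27a1 was at 7.04, 2.88 and 1.95 FPKM in the WT libraries and 3.62, 2.68 and 2.36 FPKM in the cKO libraries, and its log2 fold change of −0.23 turned to 0.19 without WT replicate 1, the highest value of the class in that fit. Col24a1 was at 2.02, 1.18 and 1.82 FPKM in the WT libraries and 1.77, 1.68 and 1.46 FPKM in the cKO libraries, with log2 fold changes of −0.0084 and, without WT replicate 1, 0.086. Of the tested fibrillar genes it was closest to the other libraries in WT replicate 1, at 1.20 times the median of the other libraries. Col11a1 lay between 1.09 and 3.39 FPKM. The 8 tested fibrillar genes had a median log2 fold change of −0.54 with all samples. All were below 0, against 51.3% of all genes, and none had an unadjusted p under 0.05, against 3.04%. Without WT replicate 1 the median was −0.11, with 5 below 0 and 3 above, against 50.8% of all genes below 0. Col2a1, the cartilage collagen, had 3 to 17 reads per library, Col5a3 40 to 81 and Col11a2 37 to 78, and these 3 genes did not pass the filter on low values.

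Basement membrane chains stood less high in WT replicate 1 than the fibrillar ones. Their summed level was 377.3, 256.0 and 192.1 FPKM in WT and 199.3, 169.3 and 232.8 FPKM in cKO, and WT replicate 1 stood at 1.89 times the median of the other libraries, against 3.52 times for the fibrillar sum. Their median log2 fold change was −0.43 with all samples and −0.091 without WT replicate 1. In these 2 fits 7 of 7 were below 0, where 51.3% and 50.8% of all genes were. In both fits 0 had an unadjusted p under 0.05, against 3.04% and 3.61% of all genes. Groups did not overlap for 0, against 7.88% and 16.3%.

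Type IV genes lie head to head in pairs, each pair transcribed in opposite directions from neighbouring starts. On chromosome 8 (GRCm39), Col4a1 starts at position 11362889 on the minus strand and Col4a2 at 11362805 on the plus strand, so the gene models overlap by 85 bases. On chromosome 1, Col4a4 starts at 82564570 on the minus strand and Col4a3 at 82564642 on the plus strand, 71 bases apart. On the X chromosome, Col4a6 starts at 140257091 on the minus strand and Col4a5 at 140258367 on the plus strand, 1275 bases apart. Their levels are given pair by pair.

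Col4a1 and Col4a2, whose chains make the common basement membrane network, formed the abundant pair. Col4a1 was at 120.1, 84.6 and 62.5 FPKM in the WT libraries and 61.6, 53.1 and 78.9 FPKM in the cKO libraries, with a log2 fold change of −0.43 (standard error 0.25, 95% limits −1.02 and 0.17, limma adjusted p = 0.955) and of −0.19 (95% limits −0.67 and 0.29) without WT replicate 1. WT replicates 1 and 2 lay above all cKO libraries and WT replicate 3 within them. Col4a2 was at 99.5, 59.2 and 45.0 FPKM in the WT libraries and 45.0, 41.4 and 59.8 FPKM in the cKO libraries, with log2 fold changes of −0.41 and −0.10. Both genes were highest in WT replicate 1, and WT replicate 2 and cKO replicate 3 followed. The ratio of their levels kept within 1.21 to 1.43 over the 6 libraries.

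Col4a3 and Col4a4 encode chains of specialised basement membranes such as that of the kidney filter. Col4a4 was at 3.98, 1.32 and 0.844 FPKM in the WT libraries and 1.32, 0.795 and 1.0 FPKM in the cKO libraries, with log2 fold changes of −0.45 and −0.029 without WT replicate 1, the highest of the class in that fit. Col4a3 was at 1.04, 0.366 and 0.274 FPKM in the WT libraries and 0.449, 0.325 and 0.307 FPKM in the cKO libraries on 48 to 163 reads and was not tested. Both were highest in WT replicate 1, Col4a4 at 3.02 times and Col4a3 at 2.32 times the next library, at low levels.

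Col4a5 and Col4a6 encode the remaining type IV chains. Col4a5 was at 27.7, 28.0 and 24.3 FPKM in the WT libraries and 28.2, 21.1 and 27.7 FPKM in the cKO libraries, with a log2 fold change of −0.060 (standard error 0.13, 95% limits −0.38 and 0.26, limma adjusted p = 0.976). WT replicate 1 was 1.00 times the median of the other libraries, and the groups overlapped. Col4a6 was at 4.29, 5.15 and 3.83 FPKM in the WT libraries and 4.40, 4.18 and 4.29 FPKM in the cKO libraries, with a log2 fold change of −0.030 (standard error 0.13, 95% limits −0.33 and 0.27, limma adjusted p = 0.984), and WT replicate 1 was again 1.00 times the median of the others. This pair was thus level in the library in which the other type IV genes were highest. As a description, the ratio of Col4a5 to Col4a1 was 0.231, 0.331 and 0.389 in WT and 0.459, 0.398 and 0.351 in cKO.

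**Figure D3:**
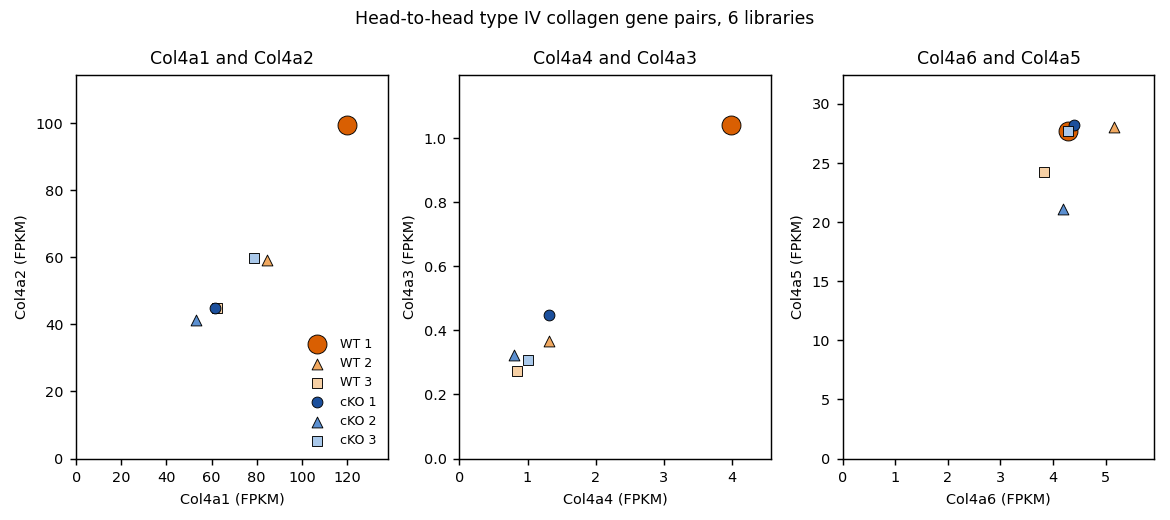
FPKM of the 3 head-to-head type IV pairs, the minus-strand gene on the x axis and the plus-strand gene on the y axis; each point is 1 library and axes start at 0. WT replicate 1 (large orange circle) lies apart for Col4a1 with Col4a2 and for Col4a4 with Col4a3, and sits with the other libraries for Col4a6 with Col4a5.

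Col18a1 and Col15a1 encode the collagens of basement membranes that carry sugar chains and release endostatin-like fragments. Col18a1 was at 104.5, 72.8 and 52.8 FPKM in the WT libraries and 54.1, 46.3 and 57.2 FPKM in the cKO libraries, with a log2 fold change of −0.49 (standard error 0.24, 95% limits −1.05 and 0.072, limma adjusted p = 0.955) and −0.24 (95% limits −0.64 and 0.16) without WT replicate 1, the lowest of the class in that fit. WT replicates 1 and 2 lay above all cKO libraries and WT replicate 3 inside the cKO range. Col15a1 was at 16.0, 4.54 and 2.57 FPKM in the WT libraries and 4.21, 2.04 and 3.59 FPKM in the cKO libraries, with log2 fold changes of −0.74, the lowest of the class with all samples, and −0.091. In WT replicate 1 it stood at 4.47 times the median of the other libraries, against 1.93 times for Col18a1.

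Among the other types, the microfibrillar type VI chains were the most abundant, and Col6a6 was the 1 tested collagen with non-overlapping groups. Col6a1 was at 221.4, 108.5 and 69.8 FPKM in the WT libraries and 89.5, 68.3 and 89.0 FPKM in the cKO libraries and Col6a2, its partner chain, at 142.2, 68.9 and 43.7 FPKM in WT and 53.9, 38.7 and 54.4 FPKM in cKO. For Col6a1 the level in WT replicate 1 was 2.04 times that in WT replicate 2, the next library, and WT replicate 3 lay among the cKO libraries. Log2 fold changes were −0.54 for Col6a1 and −0.63 for Col6a2 with all samples, and −0.091 and −0.18 without WT replicate 1.

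Col6a3, the longest chain of classical type VI collagen, was at 36.5, 7.84 and 5.01 FPKM in the WT libraries and 7.0, 4.78 and 6.32 FPKM in the cKO libraries. WT replicate 1 stood at 4.65 times the next library, and the other 5 overlapped between groups. It had the lowest log2 fold change of the other types, −0.85, and −0.065 without that library. Its ratio to Col6a1 was 0.165 in WT replicate 1 and between 0.0700 and 0.0782 in the other 5, so Col6a3 stood further above its usual level than Col6a1 in that library.

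Col6a6 encodes a long chain related to that of Col6a3 and maps to chromosome 9 from position 105566616 to 105705413 on the minus strand (GRCm39), beside Col6a5 and Col6a4, with 27.9 and 27.5 kb between neighbours. It stood at 9.46, 6.86 and 7.48 FPKM in the WT libraries and 5.37, 3.98 and 6.08 FPKM in the cKO libraries. All 3 WT libraries lay above all 3 cKO libraries, the nearest being WT replicate 2 and cKO replicate 3. Means were 7.93 ± 1.36 FPKM (SD, n = 3) for WT and 5.14 ± 1.07 FPKM (SD, n = 3) for cKO, with a log2 fold change of −0.55 (standard error 0.17, 95% limits −0.96 and −0.13, limma adjusted p = 0.955). Without WT replicate 1 the log2 fold change was −0.43 (95% limits −0.83 and −0.019, limma adjusted p = 0.9998). Groups that are apart with all samples necessarily stay apart when a library is left out, so that adds no support. In that smaller fit 16.3% of all genes had non-overlapping groups. Without cKO replicate 2, Col6a6 no longer had an unadjusted p under 0.05 and 0 collagens did, against 1.73% of all genes in that fit. The gene rested on 509 to 1253 reads per library. Its neighbours Col6a5 and Col6a4 overlapped between groups, with log2 fold changes of −0.67 and −0.43 and, without WT replicate 1, −0.20 and −0.059.

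The fibril-associated chains did not all stand high in WT replicate 1. Col9a3, a chain of cartilage-type collagen IX, was at 2.67, 4.60 and 5.09 FPKM in the WT libraries and 5.18, 5.33 and 4.84 FPKM in the cKO libraries. WT replicate 1 was the lowest library and the other 5 lay within 1.16 times of each other. Its log2 fold change of 0.29 was the highest of the other types with all samples and was 0.065 without WT replicate 1. Col9a3 overlaps the opposite-strand gene Tcfl5 by 237 bases, Tcfl5 had a mean of 17.8 FPKM, and no strand setting is given, so reads of the 2 genes cannot be told apart in the overlap. Col9a2, another type IX chain, was in contrast highest in WT replicate 1, at 32.0 FPKM against 13.0 to 21.4 FPKM in the others, while the remaining type IX gene, Col9a1, had 1 read in all 6 libraries.

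The remaining fibril-associated genes that were tested are Col12a1, Col14a1, Col16a1 and Col20a1. Col12a1, a coat protein of fibrils, was at 21.9, 19.0 and 10.6 FPKM in the WT libraries and 13.5, 8.14 and 10.9 FPKM in the cKO libraries. WT replicates 1 and 2 were the 2 highest and WT replicate 3 lay in the cKO range, with log2 fold changes of −0.59 and −0.39 without WT replicate 1. Col16a1 ranged from 4.79 to 13.7 FPKM, with log2 fold changes of −0.40 and −0.089. Col14a1 was not high in WT replicate 1, at 0.957 times the median of the others, its log2 fold change was −0.26, and its lowest value was 2.18 FPKM in cKO replicate 2. Col20a1, at 1.14 to 1.90 FPKM, had log2 fold changes of 0.13 and 0.27, and without WT replicate 1 its groups did not overlap, with cKO higher. In that fit 7.9% of all genes were higher in cKO without overlap.

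The type VIII chains form networks under endothelia. Col8a1 was at 10.5, 0.473 and 1.44 FPKM in the WT libraries and 1.51, 1.29 and 1.53 FPKM in the cKO libraries. In WT replicate 1 it stood at 7.31 times the median of the other libraries, the highest ratio among the 44 genes, and WT replicate 2 was the lowest library. Its log2 fold change turned from −0.50 to 0.36 without WT replicate 1, the highest of the other types in that fit. Col8a2 ranged from 3.60 to 13.1 FPKM, with log2 fold changes of −0.55 and −0.14.

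The transmembrane chains Col23a1 and Col25a1 and the secreted chain Col26a1 completed the tested set. Their levels in WT replicate 1 were 2.38, 2.27 and 2.61 times the median of the others. Without that library their log2 fold changes were −0.076, −0.14 and 0.0069, and their groups overlapped. Of the 8 genes of other types that were not tested, Col7a1, which forms anchoring fibrils under the skin, had the highest level in 1 library, 2.56 FPKM in WT replicate 1 against 0.304 to 0.679 FPKM in the rest. Col28a1, Col13a1, Col17a1 and Col22a1 had 19 to 100 reads per library, and Col19a1, Col10a1 and Col9a1 had 0 to 15.

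**Figure D4:**
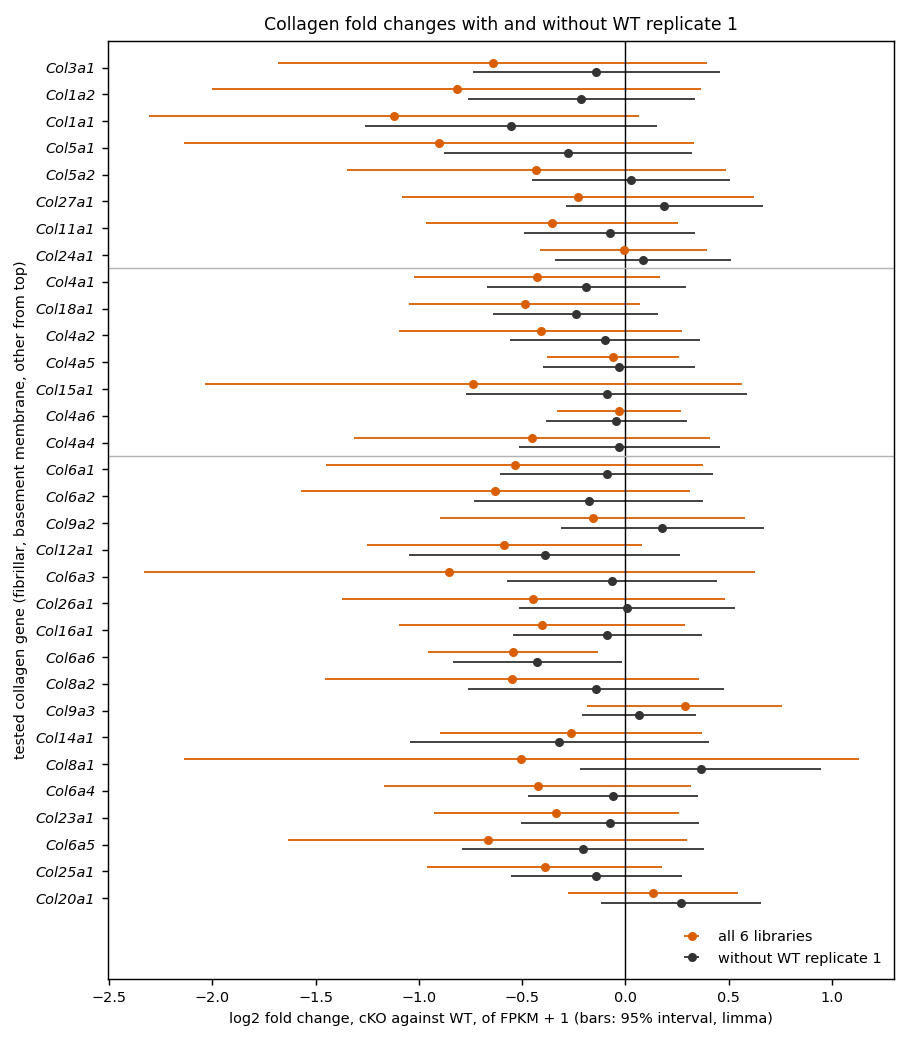
Log2 fold change of cKO against WT with its 95% interval from limma for the 32 tested collagens, with all 6 libraries (orange) and without WT replicate 1 (dark grey). Most orange points lie left of 0, and most dark grey points lie nearer to 0; Col6a6 is the 1 gene whose interval leaves out 0 in both.

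The level of partner chains within a library does not depend on its scaling, and 10 such ratios were computed after the levels had been seen. The ratio of Col6a1 to Col6a2 was 1.56, 1.58 and 1.60 in WT and 1.66, 1.77 and 1.64 in cKO, higher in all 3 cKO libraries than in all 3 WT libraries by a small margin. An exact two-sided permutation test gave p = 0.1, the smallest possible, and 0.4 after Benjamini-Hochberg adjustment over the 10 ratios. The ratio of Col1a1 to Col1a2 was 0.885, 0.928 and 0.979 in WT and 0.730, 0.605 and 0.953 in cKO. It was lowest in cKO replicates 1 and 2, while cKO replicate 3 lay inside the WT range (exact permutation p = 0.3, adjusted 0.5). The ratio of Col3a1 to Col1a1 was 2.13, 2.63 and 2.31 in WT and 3.37, 4.30 and 2.47 in cKO, with cKO replicate 3 again inside the WT range (exact permutation p = 0.2, adjusted 0.4).

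Genes that make, process and bind collagen were read from 6 lists, and 0 of them passed the test over all genes. The lists hold 18 tested genes of folding and modification in the endoplasmic reticulum, 8 of processing and cross-linking, 7 receptors, 8 proteases and inhibitors, 16 basement membrane partners and 13 fibril-associated glycoproteins. Of these 70 genes, 0 passed an adjusted p under 0.05 in limma in either direction, against 0% of all genes, and 1 had an unadjusted p under 0.05, against 3.04% of all genes. Groups did not overlap for 2 of the 70, Timp1 and Fn1, against 7.88%. Fold changes were below 0 for 15 of 18, 8 of 8, 5 of 7, 7 of 8, 14 of 16 and 10 of 13, against 51.3% of all genes. Median log2 fold changes by list, in that order, were −0.20, −0.31, −0.28, −0.32, −0.39 and −0.41 with all samples. Without WT replicate 1 they were 0.016, 0.081, −0.013, 0.026, −0.17 and −0.087. The lowest was that of the basement membrane partners, with 16 of 16 below 0. Over the 6 lists together 40 of the 70 were below 0 in that fit (57.1%), against 50.8% of all genes. Without WT replicate 3, as for the collagens, the counts went the other way: 29 of the 70 had an unadjusted p under 0.05, all lower in cKO, against 7.24% of all genes, and 38 had groups that did not overlap, 36 of them lower, against 27%. The medians were then −0.39, −0.57, −0.44, −0.57, −0.59 and −0.73, and 0 of the 70 passed after adjustment, against 0% of all genes.

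Among the enzymes, P4hb, a subunit of prolyl hydroxylase, was at 183.9, 152.2 and 131.8 FPKM in WT and 142.9, 130.8 and 138.9 FPKM in cKO, and Serpinh1, the collagen chaperone, at 178.4, 148.7 and 88.2 FPKM in WT and 126.8, 98.6 and 121.9 FPKM in cKO. P3h1, a prolyl 3-hydroxylase, had log2 fold changes of −0.23 and −0.029 without WT replicate 1. Adamts2, which removes the amino-terminal propeptide, was at 37.8, 13.5 and 8.97 FPKM in WT and 10.6, 7.61 and 10.6 FPKM in cKO, highest in WT replicate 1. Loxl1, a cross-linking oxidase, was at 78.6, 27.0 and 19.8 FPKM in WT and 30.1, 20.3 and 23.6 FPKM in cKO, and Pcolce, an enhancer of procollagen cleavage, ranged only from 49.1 to 87.9 FPKM.

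On the receptor and turnover side, Itgb1, the shared beta chain of collagen-binding integrins, was at 146.4, 122.2 and 111.1 FPKM in WT and 113.2, 93.8 and 108.4 FPKM in cKO, with a log2 fold change of −0.26. Itga1, a collagen-binding alpha chain, had log2 fold changes of −0.48 and −0.071, and Ddr1, a receptor kinase for collagen, of 0.023 and −0.011. Mmp14, a membrane-bound collagenase, was at 138.9, 69.5 and 53.4 FPKM in WT and 71.6, 61.3 and 65.8 FPKM in cKO. Timp1, an inhibitor of matrix proteases, was at 18.1, 17.0 and 13.7 FPKM in WT and 20.4, 22.0 and 18.5 FPKM in cKO, higher in all 3 cKO libraries than in all 3 WT libraries. Its log2 fold change was 0.31 (standard error 0.13, 95% limits 0.0069 and 0.61, limma adjusted p = 0.955), and it was the 1 gene of the 6 lists with an unadjusted p under 0.05. That p was above 0.05 after rescaling to TPM, where its groups overlapped, and also with no trend in the prior spread, in limma-voom, and without WT replicate 2, WT replicate 3, cKO replicate 1 or cKO replicate 2. Timp2 and Mmp16 had log2 fold changes of −0.36 and −0.49, and −0.084 and −0.13 without WT replicate 1.

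Among matrix partners, Sparc, a collagen-binding glycoprotein, was the most abundant at 505.0, 360.9 and 270.8 FPKM in WT and 315.2, 287.1 and 332.9 FPKM in cKO, and Lamb1, a laminin chain, was at 109.5, 51.5 and 40.7 FPKM in WT and 44.6, 38.5 and 48.8 FPKM in cKO. Nid2, which links laminin to type IV collagen, and Lama4, a laminin chain of vessels, had log2 fold changes of −0.70 and −0.76, and of −0.31 and −0.31 without WT replicate 1. Fn1, fibronectin, was at 41.6, 15.4 and 14.2 FPKM in WT and 11.9, 9.60 and 12.6 FPKM in cKO. All 3 WT libraries lay above all 3 cKO libraries, with a log2 fold change of −0.84 (standard error 0.38, 95% limits −1.74 and 0.069, limma adjusted p = 0.955) and −0.36 (95% limits −0.69 and −0.028) without WT replicate 1. Bgn, a proteoglycan of fibrils, was at 241.2, 67.8 and 45.7 FPKM in WT and 67.7, 45.8 and 72.8 FPKM in cKO, and Dcn, a related proteoglycan, at 122.7, 115.9 and 78.1 FPKM in WT and 91.7, 79.9 and 82.1 FPKM in cKO. Prelp, a proteoglycan that anchors basement membranes, had log2 fold changes of −0.53 and −0.35.

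Marker lists of cell types that make collagen differed between the same libraries. The summed level of 15 endothelial markers was 238.3, 80.3 and 54.9 FPKM in WT and 83.5, 63.5 and 70.7 FPKM in cKO, that of 12 pericyte and smooth muscle markers 122.7, 33.5 and 24.8 FPKM in WT and 38.8, 28.8 and 35.7 FPKM in cKO, and that of 14 stroma and theca markers 420.7, 167.6 and 120.6 FPKM in WT and 179.6, 150.1 and 151.3 FPKM in cKO. WT replicate 1 was highest in all 3 sums, at 3.37, 3.66 and 2.78 times the median of the other libraries, beside 3.52 times for the fibrillar collagens. All 13 tested endothelial and all 12 tested stroma markers, and 10 of the 11 tested pericyte markers, were highest in WT replicate 1. The 12 surface epithelium markers summed to 493.4, 995.5 and 803.7 FPKM in WT and 796.4, 839.5 and 936.8 FPKM in cKO, lowest in WT replicate 1. The part of these cell types in the collagen levels was not tested.

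WT replicate 2 differed from WT replicate 1 in this respect. Its collagen sum of 1029 FPKM was the second highest of the 6, above the 809.7 FPKM of cKO replicate 1, while its endothelial, pericyte and stroma sums were below those of cKO replicate 1. Its surface epithelium sum was the highest of the 6. The most abundant endothelial marker was Esam, an endothelial adhesion molecule, at 20.1, 11.6 and 8.01 FPKM in WT and 11.1, 9.65 and 12.7 FPKM in cKO, and that of pericytes and smooth muscle was Acta2, smooth muscle actin, at 27.1, 8.13 and 7.97 FPKM in WT and 10.8, 10.9 and 11.4 FPKM in cKO. Mfap4, a microfibril protein, led the stroma list at 162.1, 53.9 and 32.9 FPKM in WT and 61.4, 51.7 and 42.1 FPKM in cKO, and Krt8, a keratin, led the surface epithelium list at 60.7, 149.0 and 143.0 FPKM in WT and 132.5, 146.9 and 166.1 FPKM in cKO. No endothelial, pericyte or stroma marker was at 0 in all libraries.

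Other tissues that make collagen were checked in the same way. Of 10 cartilage and bone markers 8 stayed below 1 FPKM in every library, and the list summed to 5.84, 3.74 and 1.98 FPKM in WT and 3.83, 2.79 and 3.20 FPKM in cKO. Hapln1, a cartilage link protein, was the most abundant of them at 0.754 to 4.10 FPKM. Of 8 skeletal muscle markers, 5 stayed below 1 FPKM in every library, Actn3, a muscle actinin, was the most abundant, and Myod1, which defines muscle precursors, was listed at 0 in all 6. Markers of mesonephros and oviduct epithelium summed to 78.2, 93.1 and 80.1 FPKM in WT and 92.6, 90.9 and 112.3 FPKM in cKO, macrophage markers to 33.3, 26.7 and 22.7 FPKM in WT and 28.6, 22.5 and 27.7 FPKM in cKO, oocyte markers to 536.6, 541.4 and 788.1 FPKM in WT and 599.6, 722.7 and 562.0 FPKM in cKO and pregranulosa markers to 585.0, 551.9 and 449.8 FPKM in WT and 485.6, 517.1 and 579.7 FPKM in cKO. Their most abundant genes were Epcam, C1qb, Kit and Amhr2. Oocyte markers were thus highest in WT replicate 3 and cKO replicate 2, the 2 libraries with the lowest collagen sums, and this relation was not tested.

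**Figure D5:**
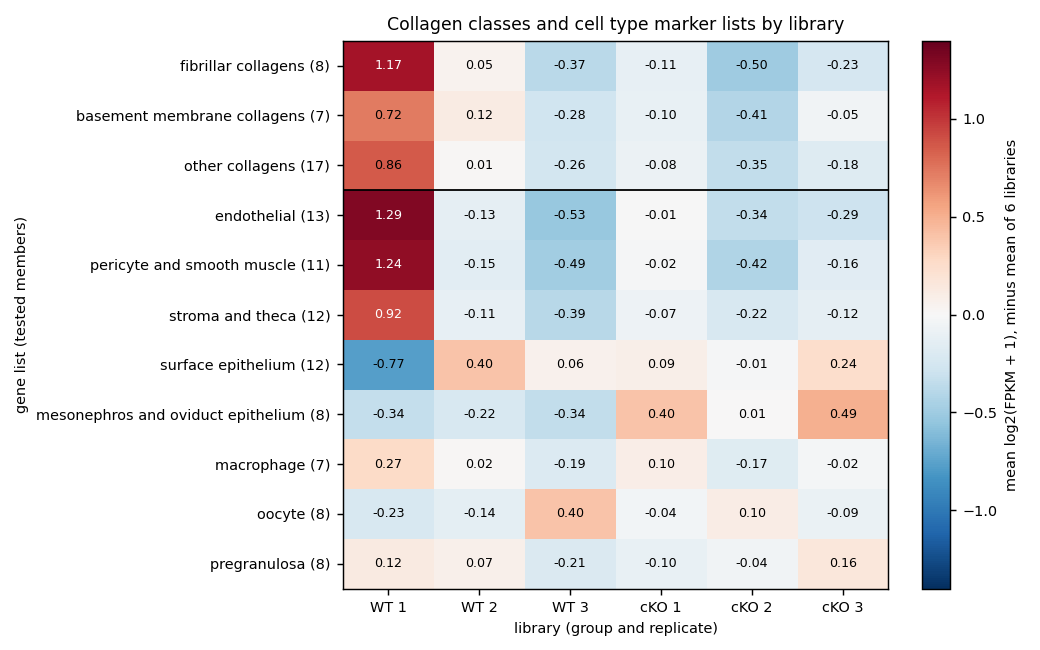
Mean log2(FPKM + 1) of the tested members of each list in each library, minus the mean of the 6 libraries; colours and printed values give that difference, and the number in brackets counts the tested members. In WT replicate 1 the 3 collagen classes stand at 1.17, 0.72 and 0.86, beside 1.29 for endothelial and 0.92 for stroma markers, and the surface epithelium list stands at −0.77.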

How the data were processed

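The authors deposited FPKM values for 47122 gene models of 6 ovary samples, 1 column each. The aligner HISAT2 2.0.5 is listed, per the submitters' processing notes, beside 2 builds (mm10, GRCm39), and coordinates use GRCm39 sequence accessions. For the counting tool, annotation release and strand setting: not given in the sources used here. FPKM times gene length was a whole multiple of a single step per library (100% of values above 0 and up to 2000 reads lay within 0.05 of a whole number), which gave the recovered reads. Replicates differed beyond sampling noise (chi-square per degree of freedom 13.3 to 66.6).

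Genes with at least 1 FPKM in at least 3 of 6 samples (14589) were tested as log2(FPKM + 1), which understates changes of low genes, with limma 3.58.1 in R 4.3.3 (trend in the prior spread, two-sided, Benjamini-Hochberg adjustment, threshold 0.05). Fits without a library kept the same genes. The script was tested on simulated data with the same spread in all libraries and none standing apart, so that test does not measure its power here. Exact permutation tests used scipy 1.17.1. Named collagens have a mean of at least 20 FPKM, an unadjusted p under 0.05, non-overlapping groups, or the extreme fold change of their class with or without WT replicate 1. From each pathway list the 2 most abundant genes and the 2 with the smallest p, and from each marker list the most abundant gene, are given. Members and lists were chosen with earlier results of these data known. Alternatives were other pseudocounts, filters, scalings and tests, a replicate block and leaving out each library. Of the 44 collagens, 23 overlap another gene model, and for 5 tested ones (Col4a1, Col4a2, Col16a1, Col9a3, Col23a1) that model has at least 0.1 times their level.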

Additional observations from a re-analysis of the deposited data

How the results depend on the processing

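Col6a6 kept its direction and its non-overlapping groups under all 15 alternatives run, but most of these could not have changed that. Groups that are apart stay apart when a library is left out, or when the pseudocount, filter, block or prior spread is changed. Only rescaling to TPM, median-of-ratios scaling and limma-voom could have made them overlap. Over all genes tested, 0 collagens were called in each of them, and leaving out 1 library gave 0 to 1 genes called in all, the 1 without cKO replicate 2. The number of collagens at an unadjusted p under 0.05 was 1 with all samples (Col6a6), 3 with the replicate block (Col6a6, Col1a1 and Col12a1, against 2.96% of all genes) and 2 in limma-voom on recovered reads (Col6a6 and Col1a1, against 2.42%). It was lowest without cKO replicate 2, at 0, against 1.73% of all genes in that fit. It was highest without WT replicate 3, at 16, all lower in cKO, against 7.24% of all genes in that fit. The number with non-overlapping groups was 3 with no filter on low values (2 lower and 1 higher in cKO: Col6a6, Col5a3 and Col17a1, against 7.18% of the 33311 genes then fitted), and ranged from 1 without cKO replicate 2, against 12% of all genes, to 21 without WT replicate 3, against 27%. It was 5 without cKO replicate 3 (4 lower and 1 higher, against 23%). It was 2 without WT replicate 1 (Col6a6 lower and Col20a1 higher, against 16.3%), without WT replicate 2 (Col6a6 and Col24a1, both lower, against 17.3%) and without cKO replicate 1 (Col6a6 and Col25a1, both lower, against 14.3%). Leaving out 1 library moved the median log2 fold change from −0.95 to −0.11 for fibrillar, −0.66 to −0.091 for basement membrane and −0.65 to −0.089 for other collagens, with the value nearest 0 without WT replicate 1 and the lowest without WT replicate 3.

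With single libraries left out, the sign of the log2 fold change turned for 9 of the 32 tested collagens. These were Col24a1 (−0.15 to 0.086, turned without WT replicate 1, WT replicate 3 or cKO replicate 3), Col27a1 (−0.54 to 0.19), Col5a2 (−0.80 to 0.025) and Col8a1 (−1.12 to 0.36), the last 3 without WT replicate 1, Col4a5 (−0.13 to 0.069) without cKO replicate 2 and Col4a6 (−0.11 to 0.064) without WT replicate 2. Col9a2 (−0.16 to 0.18) and Col26a1 (−0.45 to 0.0069) also turned without WT replicate 1, and Col14a1 (−0.26 to 0.021) without cKO replicate 2, here given as the value with all samples and the value without that library. No tested collagen changed sign under the other settings that could be run for it; the filter at 5 FPKM kept 19 of the 32. For these changes the cause was not tested. Deviations of same-numbered samples from their group means correlated at 0.221, 0.0135 and −0.0278 across genes. WT replicate 1 and cKO replicate 1 correlated best with each other, but not every sample correlated best with its own number. Deviations within groups of 3 sum to 0, so these values cannot settle whether same-numbered samples are related. No call over all genes changed with the replicate block. It put 5 of the 70 pathway genes at an unadjusted p under 0.05 (4 lower), against 2.96% of all genes (1.13% lower). Without the block 1 of the 70 had such a p, against 3.04% of all genes. Rescaling to TPM moved the median over all genes from −0.0058 to −0.082 and that of the 32 collagens from −0.44 to −0.56. Depth limits the untested chains: Col2a1, Col9a1, Col10a1 and Col19a1 had at most 17 reads in any library. The 95% limits of a tested collagen lay 0.30 to 1.63 log2 units from its estimate, so the size of difference that could be seen differed between genes.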
